A study of Mus musculus with 8 samples.

Results

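The genes described here are 44 genes of the extracellular matrix, of its remodelling, of TGF-beta and of hepatic stellate cells. They were named by symbol from a list chosen with earlier results of these data known, so no test over the list was made. Of the 44 genes, 43 had an array row that carried their symbol alone, among 22180 genes so named, and Loxl2 was not analysed here. Those that lay above the limit for dim genes were 42, and these were tested among 15380 genes in all. Lum, which encodes the proteoglycan lumican, lay below the limit. By role the list holds 11 collagen chains, 10 proteoglycans and matrix glycoproteins, 8 remodelling enzymes and their inhibitors, 7 genes of TGF-beta and its targets, and 8 markers of stellate cells and of the cytoskeleton.

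The samples were primary mouse hepatocytes of 2 genotypes, p16+/+ (wild type) and p16-/- (knockout), taken from littermates, with 4 cultures and 4 arrays in each group. Collagenase perfusion freed the cells from the liver, all cultures attached for 16 h in medium that held 10% serum (fetal bovine), dexamethasone at 25 nM and insulin at 100 nM, and all then spent 8 h in medium with 1 mM glucose and 0.1% albumin before RNA was taken at 24 h. Sample titles call the cultures of each group biological replicates 1 to 4. Strain, age, sex, the deleted exons and whether each culture came from its own animal were not stated in the sources read. A p-value here therefore reflects the spread between these cultures, which may be technical. The question is which members differ between the genotypes. Values are log2 expression as the authors normalized it, errors of means are SD over 4 arrays, and changes are knockout minus wild type with limma's standard error (SE) and a p adjusted over all genes tested, called when under 0.05.

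The matrix of the normal liver is sparse and lies between the hepatocytes and the endothelium of the sinusoids. Hepatic stellate cells sit in that space, store retinyl esters, and after injury turn into contractile myofibroblasts that lay down fibrillar collagen. TGF-beta, their best known fibrogenic signal, is secreted in a latent form, released from it by integrins and proteases, and acts through the receptors TGFBR2 and TGFBR1 on SMAD2 and SMAD3. Hepatocytes themselves make much of the fibronectin of plasma.

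The targeted locus was examined first. Cdkn2a, the gene of p16, was at 4.16, 4.79, 4.48 and 4.68 in wild type and at 4.28, 4.66, 4.27 and 4.91 in knockout replicates 1 to 4, with a change of 0.0040 (95% interval -0.37 to 0.38, two-sided exact permutation p = 1). The gene also encodes ARF, and no source read here says whether its 1 row lies in the deleted part, so it does not check the genotype. The hepatocyte products Alb and Ttr were high in all cultures, Alb at 13.54 ± 0.028 in wild type and 13.57 ± 0.013 in knockout and Ttr at 12.78 ± 0.088 and 12.97 ± 0.012 (n = 4 each). Neither was called. They do not stand for the hepatocyte markers given below, of which 14 of 18 tested rose (77.8%, beside 7.02% of all genes tested). Array medians were 3.76 to 3.88. Knockout replicate 4 stood apart on the second principal component, at -25.2 against -8.91 to 14.6 for the other arrays.

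Of the 42 members tested, 8 fell and 4 rose in the knockout. Over all genes tested 13.8% were called, 6.76% as lower and 7.02% as higher, against 19.0% and 9.52% of the members. The genes that fell were Dcn, Lrat, Sparc, Tgfb1, Ecm1, Mmp14, Timp3 and Pdgfrb, and those that rose were Lox, Reln, Ccn2 and Vim. The median change of the members was -0.16, beside -0.025 for all genes tested. Groups did not overlap for 14 members, or 33.3%, where the share over all genes tested was 20.2%. The fibrillar collagens and the contractile genes Acta2 and Tagln were not among the called members.

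**Figure D1:**
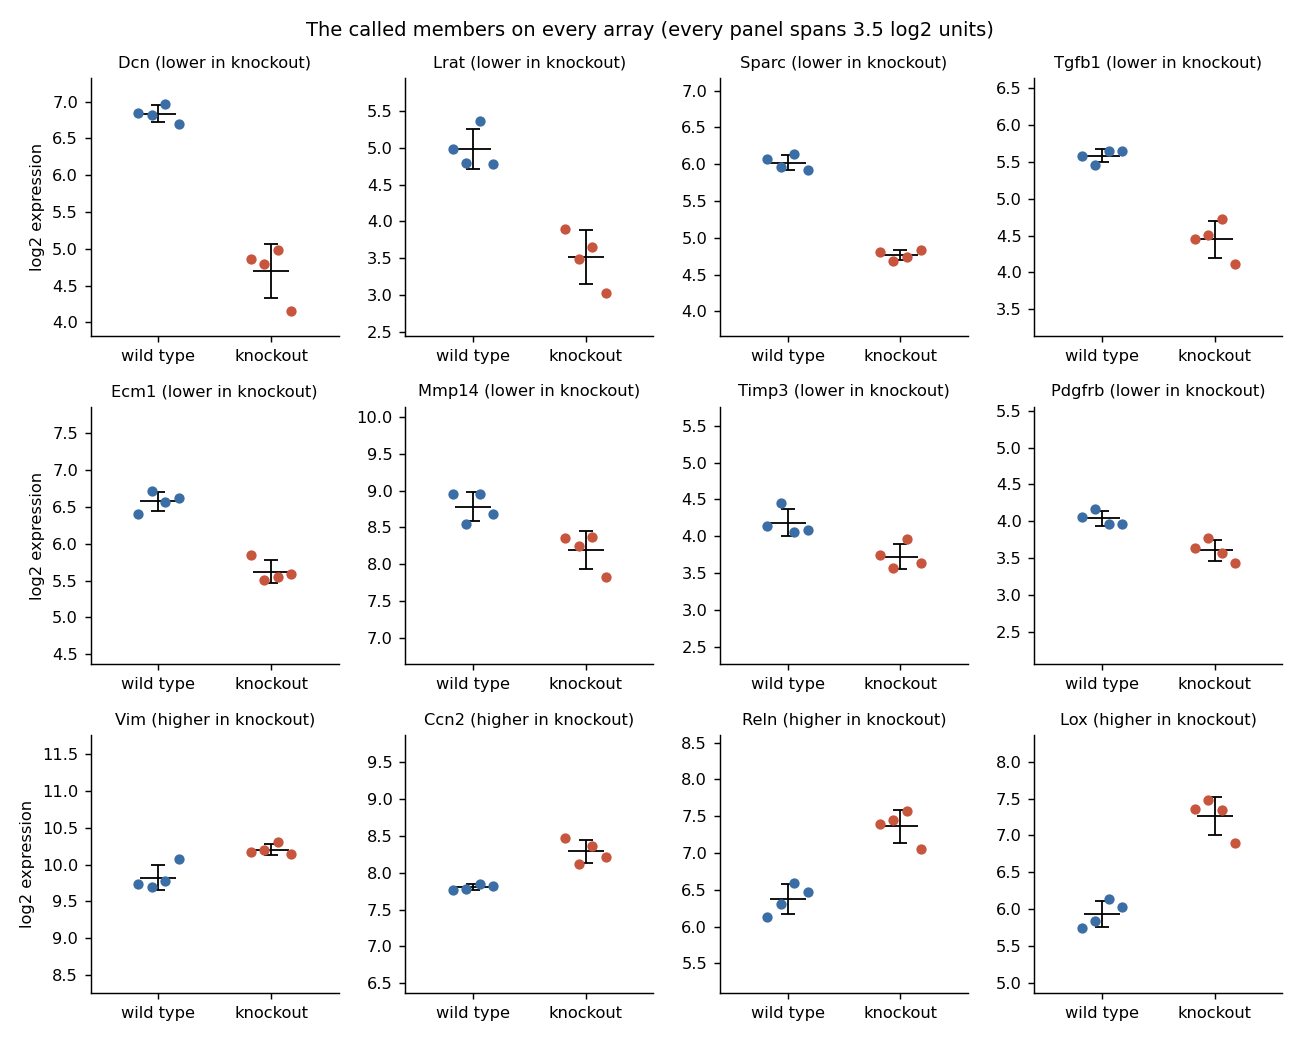
Log2 expression of the 12 called members on every array, wild type in blue and knockout in red, with the mean and SD (n = 4) in black and the same height of axis in every panel. The groups did not overlap for any of the 12, and knockout replicate 4, the rightmost red point, was the lowest knockout array for 8 of them.

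Among proteoglycans and matrix glycoproteins, Dcn fell most. It encodes decorin, a small leucine-rich proteoglycan that coats collagen fibrils and binds TGF-beta, and stellate cells are its known main source in the liver. Wild type replicates 1 to 4 were at 6.85, 6.82, 6.97 and 6.69 and knockout replicates at 4.86, 4.79, 4.99 and 4.16. Every knockout array lay far below every wild type array, with replicate 4 the lowest, and the fall was 4.39-fold (log2 change -2.13, SE 0.16, adjusted p = 1.04e-05). Without knockout replicate 4 the change was -1.96.

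Sparc, whose product osteonectin binds collagen and calcium and is made by stellate and endothelial cells alike, was at 6.07, 5.96, 6.14 and 5.91 in wild type and 4.81, 4.69, 4.73 and 4.83 in knockout cultures. Both groups were tight, and the gap between them was several times their spread: the fall was 2.39-fold (log2 change -1.25, SE 0.088, adjusted p = 6.68e-06). Ecm1, a secreted glycoprotein known to hold back the activation of latent TGF-beta in the liver, was at 6.40, 6.72, 6.56 and 6.62 and at 5.85, 5.51, 5.55 and 5.59. Its groups were also far apart, and it fell 1.93-fold (log2 change -0.95, SE 0.11, adjusted p = 1.59e-04).

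Reln moved the other way. It encodes reelin, a large secreted glycoprotein known from cortical development and used in the liver as a marker of stellate cells. Wild type arrays were at 6.13, 6.31, 6.59 and 6.46 and knockout arrays at 7.40, 7.44, 7.57 and 7.05, so that the lowest knockout value, in replicate 4, was still above the highest wild type one. The rise was 1.99-fold (log2 change 0.99, SE 0.13, adjusted p = 5.91e-04).

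The other glycoproteins were not called. Fn1, which encodes fibronectin, was at 12.09, 12.09, 12.19 and 12.05 and 12.07, 12.09, 12.12 and 11.70, a change of -0.11 (95% interval -0.34 to 0.13). Of the knockout arrays 3 lay within the wild type range and replicate 4 lay below it. Thbs1, whose product thrombospondin 1 can activate latent TGF-beta, had a change of 0.33 (95% interval 0.0027 to 0.66, adjusted p = 0.182), with overlapping groups. Fbln2 and Postn, the genes of fibulin 2 and periostin, had changes of 0.073 and 0.019, and both changed sign without knockout replicate 4 (-0.030 and -0.070). Lum, untested, averaged 2.30 ± 0.28 in wild type and 1.98 ± 0.14 in knockout cultures.

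Bgn, the gene of biglycan and a close relative of Dcn, had 2 array rows of nearly equal mean that did not give the same result. The row of higher mean, used in the counts above, was at 5.77, 5.97, 5.63 and 6.22 in wild type and 5.64, 5.68, 5.19 and 5.81 in knockout cultures, with overlap and a change of -0.32 (SE 0.16, adjusted p = 0.233). The other row was at 6.43, 6.24, 6.34 and 5.99 and at 4.82, 4.88, 4.73 and 4.86. There every knockout array lay more than 1 log2 unit below every wild type array, and the row fell 2.69-fold (log2 change -1.43, SE 0.11, adjusted p = 1.05e-05 in a fit over 16233 rows, added after the values were seen). The mean of both rows was also called (change -0.87, adjusted p = 1.79e-04). No source read here says which transcripts each row measures, and the call of Bgn therefore depends on the row.

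**Figure D2:**
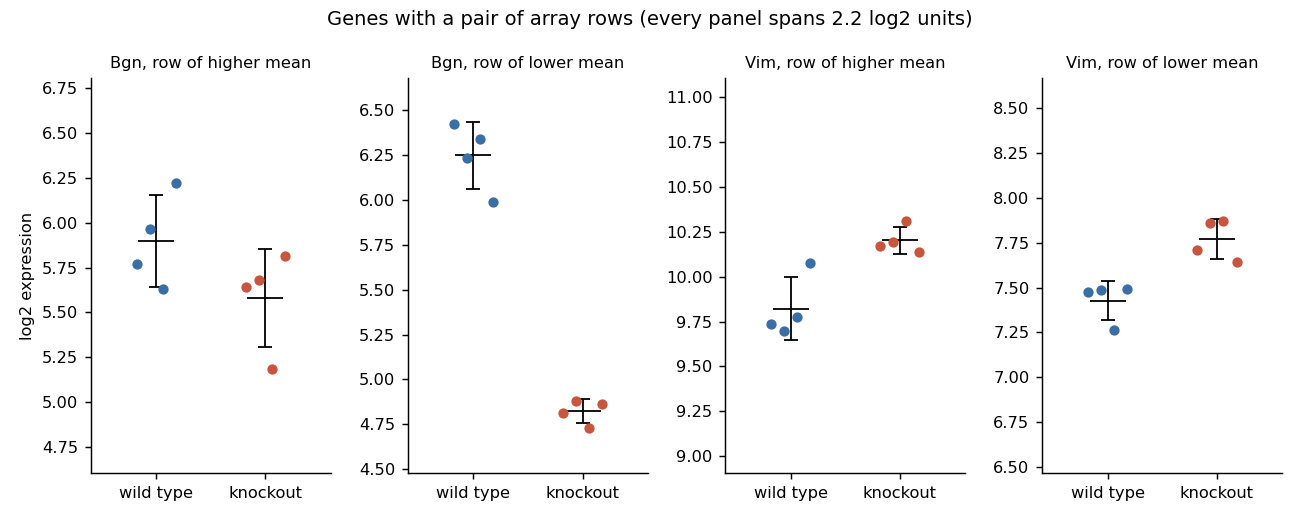
Log2 expression of both array rows of Bgn and of Vim, wild type in blue and knockout in red, with the mean and SD (n = 4) in black and the same height of axis in every panel. The Bgn row of higher mean overlaps between the groups, the other Bgn row differs by -1.43, and both Vim rows are higher in the knockout.

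None of the 11 collagen chains was called at an adjusted p under 0.05 by limma, and 4 of them had an unadjusted 95% interval below 0, namely Col3a1, Col4a1, Col4a2 and Col14a1. The share of all genes tested with such an interval was not counted, and 6.76% were called lower even after adjustment. All 11 had a knockout mean below the wild type mean, where 54.8% of all genes tested did; the median change of the chains was -0.19, beside -0.025 for all genes tested. The sign was the same for all chains tested with each scaling tried, and without wild type replicate 2 it turned for 1 chain, Col1a2 (0.032). Groups did not overlap for 2 chains, or 18.2%, a share near the 20.2% of all genes tested. Col1a2, Col3a1, Col5a2, Col6a3 and Col14a1 had group means of 3.36 to 4.27, near the array medians of 3.76 to 3.88. RMA compresses dim genes, so a change in these chains could be missed.

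The fibrillar collagens I and III make up most of scar tissue, and both chains of collagen I had changes with intervals that include 0. Col1a1 was at 4.74, 4.95, 4.88 and 5.03 in wild type and 4.89, 4.70, 4.51 and 4.74 in knockout cultures, a change of -0.19 (95% interval -0.42 to 0.039, adjusted p = 0.280). Col1a2 was at 3.88, 4.32, 3.83 and 3.87 and 4.08, 3.89, 3.65 and 3.96, a change of -0.083 (95% interval -0.37 to 0.21). The groups overlapped for both chains, with knockout replicate 3 the lowest of all 8 arrays.

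Col3a1 was at 4.43, 4.28, 4.14 and 4.23 in wild type and 3.88, 4.03, 3.49 and 4.08 in knockout cultures, without overlap and with replicate 3 the lowest (change -0.40, SE 0.13, adjusted p = 0.0706). It was called without knockout replicate 4 (0.0454), with array weights (0.0416) and with the replicate block (0.0478). Col14a1, a fibril-associated collagen, was at 3.66, 3.86, 4.07 and 3.87 and 3.62, 3.01, 3.17 and 3.65, also without overlap (change -0.50, SE 0.15, adjusted p = 0.0521). Without knockout replicate 1 or 4 it was called, at 0.0421 and 0.0298, as with array weights (0.0254) and a robust intensity trend (0.0480).

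Collagen IV, the network collagen of basement membranes, is built from Col4a1 and Col4a2, which are neighbours transcribed from a shared promoter region. Col4a1 was at 5.81, 5.89, 5.87 and 5.71 in wild type and 5.71, 5.41, 5.49 and 5.41 in knockout cultures (change -0.32, SE 0.097, adjusted p = 0.0526), and without knockout replicate 1, the highest knockout array, the adjusted p was 0.0311. It was also called with the stricter filter on dim genes (0.0294), cyclic loess (0.0420) and array weights (0.0460). Col4a2 was at 5.08, 5.07, 4.99 and 4.90 and 4.64, 4.88, 4.90 and 4.67 (change -0.24, SE 0.096, adjusted p = 0.137). In both genes the groups overlapped by a narrow margin. The chains of collagen V (Col5a1 -0.18, Col5a2 -0.16) and of the microfibrillar collagen VI (Col6a1 -0.30, Col6a2 -0.17, Col6a3 -0.081) had changes with intervals that include 0. Without knockout replicate 4 the changes of Col5a1 and Col6a2 were -0.28 and -0.32, and that of Col6a3 ran from -0.19 to -0.0038 when 1 array was left out. Second, dimmer rows had changes above 0 in Col5a1 (0.093), Col6a1 (0.021) and Col1a2 (0.22), the last of them below the limit for dim genes and untested.

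**Figure D3:**
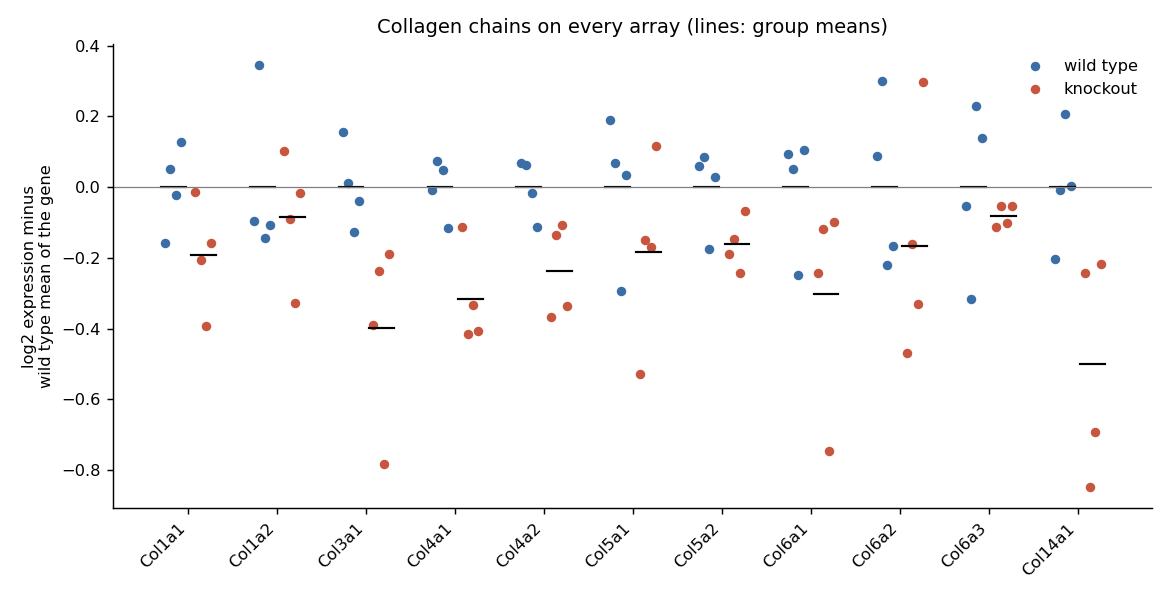
Log2 expression of the 11 collagen chains on every array, relative to the wild type mean of each gene, wild type in blue and knockout in red, with group means as black lines. The knockout mean lies below 0 for all 11 chains, from -0.081 to -0.50, while the arrays of the groups are fully apart for 2 of them, Col3a1 and Col14a1.

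Among the remodelling genes Lox rose. Lysyl oxidase, its product, cross-links collagen and elastin outside the cell. Wild type arrays were at 5.74, 5.84, 6.13 and 6.03 and knockout arrays at 7.36, 7.48, 7.34 and 6.89, a rise of 2.52-fold (log2 change 1.33, SE 0.14, adjusted p = 8.43e-05). The lowest knockout array, replicate 4, was well above the highest wild type array. The related Loxl1 was at 3.89, 3.87, 3.44 and 3.74 and 3.19, 3.67, 3.57 and 4.41, with a change of -0.026 (95% interval -0.50 to 0.45) and a wide spread in the knockout.

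Mmp14, the membrane-type protease that activates MMP2 at the cell surface, was at 8.96, 8.55, 8.95 and 8.68 in wild type and 8.35, 8.25, 8.37 and 7.82 in knockout cultures. It fell 1.50-fold (log2 change -0.59, SE 0.14, adjusted p = 0.0188), and the call was lost without wild type replicate 1 (0.0618) or 3 (0.0562). Timp3, an inhibitor of metalloproteinases that stays bound to the matrix, was at 4.15, 4.45, 4.06 and 4.08 and 3.74, 3.57, 3.96 and 3.63. It fell 1.38-fold (log2 change -0.46, SE 0.12, adjusted p = 0.0247). This call was lost when any of 5 arrays was left out, these being replicates 1 and 2 of the wild type and 1, 2 and 4 of the knockout, at adjusted p-values of 0.0559, 0.0639, 0.0561, 0.0767 and 0.0523. The groups did not overlap for either gene, but the gap between them was small for Timp3.

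The gelatinase gene Mmp2 and the inhibitor genes Timp1 and Timp2 were not called. Mmp2 had a change of -0.073 (95% interval -0.29 to 0.14), Timp1 one of -0.21 (-0.41 to -0.0093) and Timp2 one of -0.037 (-0.42 to 0.34). For Timp2 the knockout SD was 0.41 against 0.092 in wild type, with replicate 3 at 3.83 and replicate 4 at 4.80.

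Of the TGF-beta ligands, Tgfb1 fell. It encodes the main fibrogenic isoform, which liver macrophages, endothelial cells and stellate cells are known to make. Wild type arrays were at 5.57, 5.46, 5.65 and 5.65 and knockout arrays at 4.46, 4.51, 4.72 and 4.11. All knockout arrays lay below all wild type arrays, and the fall was 2.19-fold (log2 change -1.13, SE 0.12, adjusted p = 1.32e-04).

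The other ligands were not called. Tgfb2 was at 5.32, 5.36, 5.53 and 4.99 in wild type and 5.15, 5.13, 5.20 and 4.68 in knockout cultures, a change of -0.26 (95% interval -0.58 to 0.055), and only knockout replicate 4 lay below the wild type range. Tgfb3 was at 3.80, 3.69, 3.82 and 3.51 and 3.14, 3.40, 3.83 and 4.02, a change of -0.11 (95% interval -0.49 to 0.27), with knockout arrays both above and below the wild type arrays. The interval of Tgfb1 (-1.41 to -0.86) does not meet those of Tgfb2 and Tgfb3, though the difference between ligands was not tested.

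The receptor genes were not called either, and their changes were above 0. Tgfbr1, the signalling kinase of the pair, was at 6.96, 6.43, 6.99 and 7.03 in wild type and 6.90, 7.30, 7.25 and 7.22 in knockout cultures (change 0.31, 95% interval -0.0046 to 0.63). Tgfbr2, which binds the ligand, was at 6.42, 6.60, 6.92 and 6.89 and 6.99, 6.99, 6.99 and 6.63 (change 0.20, 95% interval -0.097 to 0.49). Wild type replicate 2 was the lowest of all arrays for Tgfbr1. For Tgfbr2 knockout replicate 4 was the lowest knockout array, above wild type replicates 1 and 2.

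Of the listed targets of the pathway 1 was called. Ccn2, the gene of connective tissue growth factor and a target of SMAD and of YAP and TEAD factors, was at 7.77, 7.77, 7.84 and 7.83 in wild type and 8.47, 8.12, 8.36 and 8.22 in knockout cultures. The wild type arrays hardly differed among themselves and every knockout array was above them: the rise was 1.40-fold (log2 change 0.49, SE 0.096, adjusted p = 0.00603). Averaged with a dim second row of the gene, the change was 0.29 and was not called (adjusted p = 0.217). Tgfbi, named for its induction by TGF-beta, was at 4.86, 5.16, 4.80 and 4.58 and 4.57, 4.29, 4.08 and 4.66, with overlap (change -0.45, SE 0.15, adjusted p = 0.0745). It was called without wild type replicate 4 (0.0477) or knockout replicate 4 (0.0453), with the stricter filter (0.0465) and with array weights (0.0290).

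Markers of stellate cells did not move together. Lrat, which makes the retinyl esters that stellate cells store, was at 4.99, 4.80, 5.36 and 4.78 in wild type and 3.89, 3.48, 3.65 and 3.03 in knockout cultures. It fell 2.77-fold (log2 change -1.47, SE 0.18, adjusted p = 3.49e-04), with knockout replicate 4 again the lowest array. Pdgfrb, the receptor for the growth factor that drives stellate cell division, was at 4.06, 4.17, 3.96 and 3.97 and 3.64, 3.77, 3.57 and 3.44. It fell 1.35-fold (log2 change -0.43, SE 0.098, adjusted p = 0.0136), and its call held without any of the 8 arrays. Reln, described above, rose.

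Des and Lhx2 were not called. Des, the gene of the intermediate filament desmin, was at 3.77, 3.81, 3.68 and 4.24 in wild type and 3.78, 3.79, 3.54 and 3.88 in knockout cultures (change -0.13, 95% interval -0.41 to 0.16). Lhx2, a transcription factor known to keep stellate cells quiescent, was at 3.92, 4.04, 3.73 and 4.07 and 4.00, 4.10, 4.03 and 4.30 (change 0.17, 95% interval -0.065 to 0.40). Groups overlapped for both. Both genes lay near the array medians of 3.76 to 3.88, and RMA compresses dim genes, so a change there could be missed. Pdgfrb, at a similar level, was called. Pdgfra, a marker of stellate cells and fibroblasts, was at 4.16, 3.98, 3.83 and 4.03 and 3.39, 3.36, 3.26 and 4.03, with 3 knockout arrays below all wild type arrays and replicate 4 among them (change -0.49, SE 0.16, adjusted p = 0.0641). Without knockout replicate 4 the change was -0.66 and was called (adjusted p = 0.00193).

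The genes of myofibroblasts were not called. Acta2, which encodes smooth muscle actin and is the usual marker of activated stellate cells, was at 5.63, 5.70, 5.31 and 5.98 in wild type and 5.28, 5.46, 5.50 and 5.80 in knockout cultures (change -0.15, 95% interval -0.48 to 0.18, and -0.24 without knockout replicate 4). Tagln, the gene of the actin-binding protein SM22, was at 4.88, 4.99, 4.72 and 5.23 and 4.76, 5.33, 5.06 and 5.41 (change 0.19, 95% interval -0.15 to 0.53). Vim, the gene of the filament protein vimentin, was at 9.74, 9.70, 9.78 and 10.08 and 10.17, 10.19, 10.31 and 10.14, and rose 1.30-fold (log2 change 0.38, SE 0.10, adjusted p = 0.0307). Its second row rose as well (change 0.34, adjusted p = 0.0372). The Vim call was lost when any array but wild type replicate 4 or knockout replicate 4 was left out, at adjusted p-values of 0.0642 to 0.0909, and without the filter on dim genes (0.0585).

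**Figure D4:**
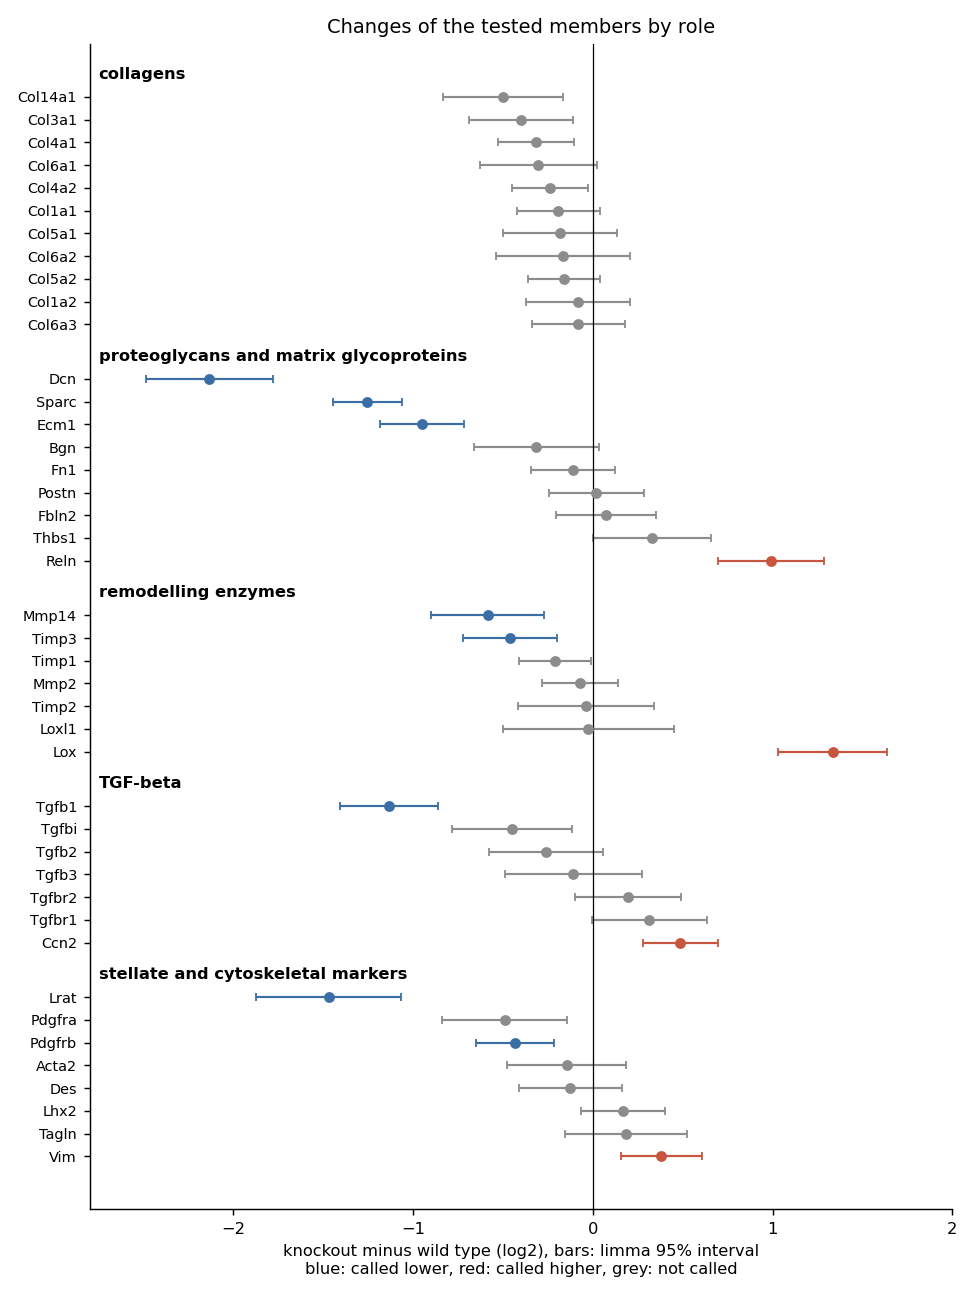
Change of each of the 42 tested members, as the log2 difference of knockout from wild type, with limma's 95% interval, grouped by role. Blue marks the 8 genes called lower, red the 4 called higher and grey the 30 not called; Dcn (-2.13) and Lox (1.33) are the ends of the range.

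The sequence just before the start of transcription is shown for the 8 called members that RefSeq's table (GRCm38.p6) covers, so that genes that moved the same way can be set beside each other. Dcn, Lox, Ccn2 and Pdgfrb have no entry. Each line gives the 120 bases that end at the start, on the strand of the gene, with matches in capitals. Motifs searched on both strands were the TATA box TATAAA, the CCAAT box CCAAT, the GC box GGGCGG, the AP-1 site TGACTCA, the SMAD element GTCTAGAC and the TEAD site GGAATG, of which a CCAAT and a GC box of Mmp14 share a base. The first 6 genes fell and the last 2 rose.
Sparc, chr11:55420081-55420200, minus strand: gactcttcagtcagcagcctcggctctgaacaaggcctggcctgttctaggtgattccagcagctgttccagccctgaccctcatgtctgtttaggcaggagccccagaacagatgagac
Ecm1, chr3:95739570-95739689, minus strand: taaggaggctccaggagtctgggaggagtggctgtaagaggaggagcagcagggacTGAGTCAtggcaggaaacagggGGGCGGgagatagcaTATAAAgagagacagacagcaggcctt
Lrat, chr3:82903975-82904094, minus strand: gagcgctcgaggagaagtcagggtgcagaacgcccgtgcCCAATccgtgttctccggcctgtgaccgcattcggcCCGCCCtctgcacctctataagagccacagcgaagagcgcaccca
Tgfb1, chr7:25686882-25687001, plus strand: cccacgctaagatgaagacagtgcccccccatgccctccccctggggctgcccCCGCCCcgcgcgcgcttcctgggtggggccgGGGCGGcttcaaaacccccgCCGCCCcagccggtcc
Mmp14, chr14:54431478-54431597, plus strand: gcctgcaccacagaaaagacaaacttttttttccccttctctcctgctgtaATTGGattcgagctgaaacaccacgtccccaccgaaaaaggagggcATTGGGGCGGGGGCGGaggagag
Timp3, chr10:86300292-86300411, plus strand: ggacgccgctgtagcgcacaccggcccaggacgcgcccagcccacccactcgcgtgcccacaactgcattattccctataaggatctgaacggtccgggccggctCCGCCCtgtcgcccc
Reln, chr5:22344706-22344825, minus strand: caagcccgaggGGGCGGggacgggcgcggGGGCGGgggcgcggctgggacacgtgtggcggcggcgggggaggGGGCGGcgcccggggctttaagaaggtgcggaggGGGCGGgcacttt
Vim, chr2:13574191-13574310, plus strand: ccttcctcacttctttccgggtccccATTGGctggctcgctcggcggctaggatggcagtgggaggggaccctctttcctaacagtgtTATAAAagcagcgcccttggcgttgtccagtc

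These starts were of different kinds within each direction. Ecm1, which fell, and Vim, which rose, both had a TATA box in the stretch shown, and Tgfb1, which fell, and Reln, which rose, had GC boxes and no TATA box. Sparc had no match. Over the 250 bases before the start, a GC box was found in 18 of the 29 members with an entry (62.1%) and in 32.7% of all 32851 windows of that length. A CCAAT box was found in 37.9% of these members against 33.8%, a TATA box in 17.2% against 12.4%, a TEAD site in 17.2% against 12.6%, an AP-1 site in 6.9% against 4.46% and the SMAD element in 0 of 29 against 0.167%. The share of members counts a gene when any of its windows matched. The share beside it is per window and is not limited to genes tested here, so the shares are not directly comparable. A match is a run of letters and was not tested as a binding site.

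Other genes of the matrix were given by lists of their own. Of 39 tested matrix genes outside the members 3 rose and 4 fell, shares of 7.69% and 10.3%, near those of all genes. Nid1, the gene of the basement membrane linker nidogen 1, fell from 11.21 ± 0.17 to 10.05 ± 0.25 (log2 change -1.16, SE 0.14, adjusted p = 2.17e-04), and the laminin chain gene Lama4 fell by 0.65 (SE 0.11). Col12a1, a fibril-associated collagen, rose from 8.38 ± 0.20 to 9.11 ± 0.25 (log2 change 0.73, SE 0.14, adjusted p = 0.00539). Of 20 tested genes that process or degrade collagen 3 rose and 2 fell, where 7.02% and 6.76% of all genes tested did. The prolyl hydroxylase subunit gene P4ha2 rose by 0.70 (SE 0.12) and the lysyl hydroxylase gene Plod1 by 0.44 (SE 0.097), while Crtap, whose product modifies prolines of collagen in a complex, fell by 0.64 (SE 0.10). Plod2, another lysyl hydroxylase gene picked out once its value was known, rose by 0.62. The lysyl hydroxylases act on lysines of collagen that LOX later cross-links.

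Of 11 tested genes that hold TGF-beta latent or set it free, 3 fell (27.3%) and 1 rose (9.09%), where 6.76% and 7.02% of all genes tested did. Lrrc32, whose product GARP tethers latent TGF-beta to the cell surface, was at 5.86, 5.61, 6.03 and 6.12 in wild type and 4.75, 4.56, 5.11 and 4.52 in knockout cultures and fell by 1.17 on the log2 scale (SE 0.15, adjusted p = 4.13e-04). The integrin genes Itgb3 and Itgav, whose products form receptors that can release the ligand, fell by 0.86 (SE 0.13) and 0.52 (SE 0.10). Furin, picked out once its value was known, was the riser (0.37); its product cleaves the TGF-beta precursor.

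Of 15 tested receptors and SMADs of the wider family 4 fell (26.7%, beside 6.76% of all genes tested) and none rose. Eng, the endothelial coreceptor endoglin, fell by 1.56 (SE 0.10), and the kinase receptor genes Acvr1 and Bmpr1a fell by 0.46 (SE 0.10) and 0.31 (SE 0.087). The fourth, named after its value was seen, was Smad3 (-0.44, SE 0.13, adjusted p = 0.0449), which carries the signal to the nucleus. Of 14 feedback genes and inhibitors 2 rose and 1 fell, 14.3% and 7.14%, beside 7.02% and 6.76% of all genes tested. Fst, whose product follistatin binds activins, rose 1.95-fold (log2 change 0.96, SE 0.12) and the pseudoreceptor gene Bambi by 0.64 (SE 0.17), while the BMP antagonist gene Nbl1 fell by 0.49 (SE 0.10). Of 17 targets of TGF-beta or YAP 1 rose and 2 fell, 5.88% and 11.8%, near those shares, with Id2 at 0.56, Ajuba at -0.49 and Ankrd1 at -0.64. Ccn1, the close relative of Ccn2 and added outside the naming rule, had a change of 0.072 (95% interval -0.12 to 0.27).

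Markers of other liver cells were set beside these results, since a hepatocyte culture can hold some of each. In bulk RNA fewer cells of a type and less RNA per cell cannot be told apart. Of 14 further stellate markers tested 3 fell (21.4%, beside 6.76% of all genes tested) and none rose, and the list mean was 4.24 to 4.35 on the wild type and 3.90 to 4.09 on the knockout arrays. The regulator Rgs5 fell by 1.65 (SE 0.11), Nt5e by 0.78 (SE 0.10) and the growth factor gene Hgf, picked out once its value was known, by 0.80. Hgf averaged 3.78 in wild type and 2.97 in knockout cultures, the latter under the limit of 3.32 for dim genes. It passed that filter only through its wild type arrays, so its fall is no support for the share of 21.4%. Hand2, Cygb and Ngfr, added outside the naming rule, had changes of -0.052, -0.24 and 0.062 and were not called, and Colec10 and Pcdh7 lay below the limit for dim genes.

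Of 18 tested markers of sinusoidal endothelial cells 16 were called lower (88.9%, beside 6.76% of all genes tested), led by Cdh5 (-2.03, SE 0.088) and Lyve1 (-1.72, SE 0.12). The list mean was 5.48 to 5.72 in wild type and 4.49 to 4.68 in knockout cultures. Clec4g, among those called, averaged 3.28 in knockout cultures, under the limit of 3.32 for dim genes. Of 16 tested Kupffer cell markers 13 fell (81.25%, beside 6.76% of all genes tested), with Ctss at -1.37 and Fcer1g at -0.91. Their list mean was 4.77 to 4.90 against 3.94 to 4.03, and Timd4 and Cd163 lay below the limit. The called Vsig4 and Cd5l averaged 3.00 and 3.13 in knockout cultures. Like Clec4g they passed the filter only through their wild type arrays, so the falls of these genes are no support for the shares. Of 18 hepatocyte markers 14 rose (77.8%, beside 7.02% of all genes tested) and none fell. Mat1a (2.51) and Slc10a1 (1.67) were among those that rose, and the list mean was 8.56 to 8.78 against 9.65 to 9.85. All changes of the members, the rises as well as the falls and the lower collagen means, stood on the same arrays as these shifts. The part of other cell types in the changes of the members was not tested.

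None of 12 portal fibroblast and mesothelial markers, of 7 smooth muscle markers and of 5 cholangiocyte markers was called by limma. The fibroblast and mesothelial list lay near the array medians of 3.76 to 3.88, and RMA compresses dim genes, so a change there could be missed. The list means were 3.83 to 4.14 in wild type and 3.87 to 4.08 in knockout cultures for fibroblasts, with Thy1 at 0.041 and Wt1 at 0.0071, 4.46 to 4.56 and 4.54 to 4.67 for smooth muscle, with Tpm2 at 0.22 and Smtn at -0.22, and 5.04 to 5.12 and 4.76 to 5.11 for cholangiocytes, with Sox9 at -0.12 and Krt19 at -0.24. At an unadjusted p under 0.05 there was 1 gene in each of the 3 lists, Cd34, Cnn1 and Epcam, named after their values were seen. The share of all genes tested at that mark was not counted, and 13.8% passed even after adjustment.

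**Figure D5:**
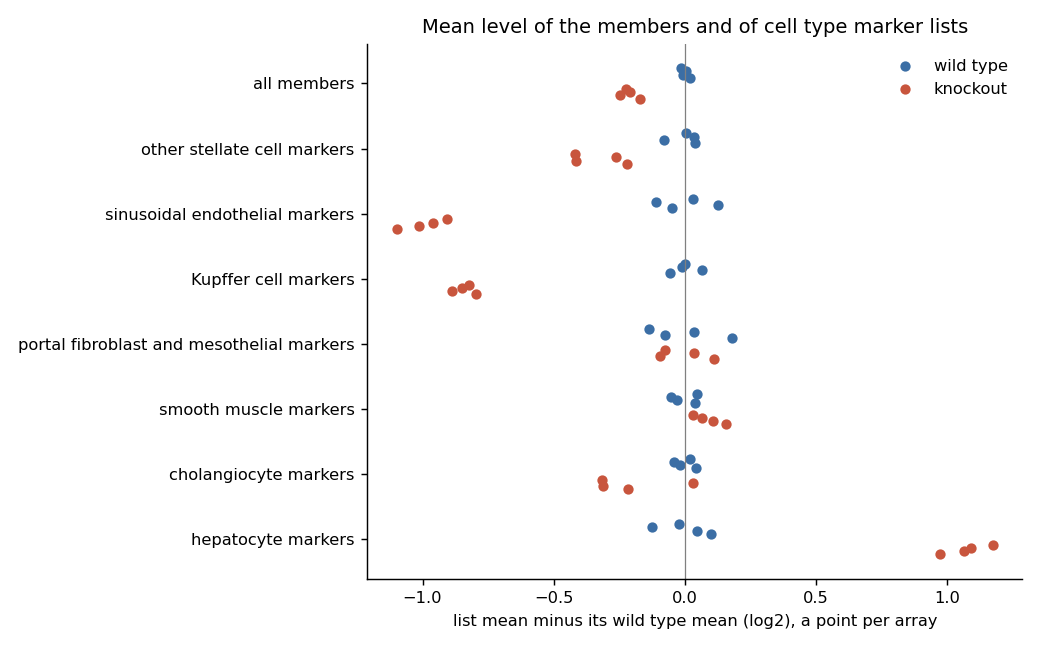
Mean log2 level of the tested members and of each marker list on every array, relative to the list's wild type mean, wild type in blue and knockout in red. For the members and for the other stellate, endothelial and Kupffer cell lists every knockout array lies below every wild type array. For the hepatocyte list every knockout array lies above, and for the fibroblast list the groups mix.

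Single arrays differed in how they bore on the members. Knockout replicate 4 was the lowest knockout array for 8 of the 12 called members, those that rose among them as well as those that fell, and the highest for 20 of all 42 members. Among the collagens it was lowest for none of 11, and knockout replicate 3 was lowest for 5. Leaving out some single array moved the change by over 1.5 times for 21 of the 30 uncalled members and 0 of the 12 called ones. That ratio is to the member's own change, so changes near 0 pass it easily. Called members were picked for changes large against their spread, so this contrast is no measure of robustness. Without knockout replicate 4 the counts were 4 higher and 11 lower and the median change of the members was -0.22.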

How the data were processed

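Total RNA of 8 hepatocyte cultures was labelled with biotin and hybridised to Affymetrix gene arrays, 1 per culture. The deposited table holds log2 expression values, which the authors made with RMA through the oligo package, per the submitters' processing notes. No version was stated in the sources read. RMA forces arrays to 1 distribution and compresses dim genes, so a shift shared by all genes is not seen. Arrays have no read depth, and 4 per group limit the precision.

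Rows were named from the platform annotation: 23521 of 41345 rows had 1 symbol. Per gene the row of highest mean was kept, and genes whose mean exceeded 3.32 (percentile 40 over the rows of the table) were tested. The genotypes were set against each other in limma 3.58.1 under R 4.3.3 (lmFit, then eBayes without trend, 5.05 prior degrees of freedom), two-sided, with Benjamini-Hochberg adjustment over 15380 genes. The procedure was tested on simulated data. The members, lists and alternatives were chosen with earlier results of these data known. All members were described by role, with values on every array for those called, for classical stellate and activation markers and for TGF-beta ligands and receptors. From other pathway lists the 3 called genes of smallest p were named, and from marker lists 2, or the 2 of highest mean where none was called; others are marked as such. Alternatives were other filters, row rules, scalings, variance models, array weights, a replicate block, a stricter threshold and leaving out each array. Tables were made in Python 3.11.15.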

Additional observations from a re-analysis of the deposited data

Results flagged for a closer look

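Single arrays far from the other 3 of their group were looked for in 86 groups of 4, those of 43 members in 2 genotypes, and 7 were found. The mark was Dixon's 95% critical value for the gap to the nearest array over the range of the group, which chance alone passes in about 1 group of 20. Knockout replicate 4 accounted for 4 of the 7. It was the low array for Fn1 (11.70, others 12.07 to 12.12), Tgfb2 (4.68, others 5.13 to 5.20) and Tgfbr2 (6.63, others 6.99 to 6.99), and the high array for Pdgfra (4.03, others 3.26 to 3.39). Wild type replicate 2 was high for Col1a2 (4.32, others 3.83 to 3.88) and low for Tgfbr1 (6.43, others 6.96 to 7.03). Wild type replicate 3 was low for Col6a1 (4.79, others 5.09 to 5.15). None of these 7 genes was called with all arrays.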

How the results depend on the processing

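The count of members called lower (8) was 13 with array weights, 5 at an adjusted p under 0.01 and 6 to 11 when 1 array was left out. The count called higher (4) was 3 to 4 when 1 array was left out. Over all genes 2119 were called, 1071 at 0.01 and 1448 to 2165 without 1 array. The median change of the members was -0.22 to -0.14 without 1 array. Dcn, Sparc, Ecm1, Tgfb1, Lrat, Pdgfrb, Lox and Reln were called at 0.05 under each alternative run for them. Pdgfra, uncalled, was called after median centring (adjusted p = 0.0455), with cyclic loess (0.0401), array weights (0.00584) or the replicate block, and without knockout replicate 4. With array weights 3 collagen chains, Col3a1, Col4a1 and Col14a1, were called; Col4a1 was also called with the stricter filter and cyclic loess, and Col14a1 with a robust intensity trend. Vim was not called without the filter on dim genes (0.0585). Centring and cyclic loess moved the median change of all genes from -0.025 to -0.014 and -0.0090.

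The replicate numbers were not taken to pair the arrays, since same-numbered arrays did not all correlate above 0.1 in their deviations from the group means (r = 0.061, 0.020, 0.26 and 0.21 for numbers 1 to 4). Numbers 3 and 4 correlated best with their own number (highest r with another 0.14 and 0.022), and numbers 1 and 2 did not (0.079 and 0.15). With the replicate block 2215 genes were called over all, with 4 members higher and 10 lower, Col3a1 (adjusted p = 0.0478) and Pdgfra (0.0451) being the additional ones.

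The sign turned in uncalled members alone, and the cause was not tested. It did so in the untested dimmer row of Col1a2 (0.22), in the dimmer rows of Col5a1 (0.093) and Col6a1 (0.021) and for Postn with array weights (-0.053). Without 1 array the change ran from -0.15 to 0.032 for Col1a2, -0.030 to 0.13 for Fbln2, -0.070 to 0.078 for Postn, -0.26 to 0.15 for Loxl1, -0.21 to 0.12 for Timp2 and -0.25 to 0.044 for Tgfb3.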

Other observations

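Other matrix genes outside the members that passed the test, picked out once their values were known, lay in both directions. The basement membrane collagen genes Col15a1 and Col18a1, the latter the source of endostatin, rose by 0.34 (SE 0.098, limma adjusted p = 0.0432) and 0.40 (SE 0.11, 0.0313). Agrn, the gene of the heparan sulphate proteoglycan agrin, fell by 0.66 (SE 0.14, 0.00940), and Matn2, which encodes the adaptor protein matrilin 2, fell by 0.40 (SE 0.10, 0.0234). Bmp1, whose product trims the C-terminal propeptides of fibrillar collagens, fell by 0.35 (SE 0.095, 0.0326).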
